A study of Mus musculus with 4 samples.

Results

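Aortic cells of ApoE-null mice on western diet were compared between the library LysM-DKO/ApoE-/- and the library WT/ApoE-/-, class by class, to separate shifts common to macrophages, endothelial cells, fibroblasts and smooth muscle cells from shifts of the macrophages alone. Barcodes with at least 2000 unique molecular identifiers (UMIs, each standing for 1 captured transcript) and at most 10% mitochondrial UMIs were kept, which left 7149 of 29724 barcodes (24.1%) in the WT library and 7748 of 11414 (67.9%) in the LysM-DKO library. A barcode was placed in a class from UMIs of a few defining genes: at least 5 of C1qa, C1qb and C1qc together for macrophages, at least 2 of Pecam1 and Cdh5 for endothelial cells, at least 3 of Pdgfra and Serpinf1 for fibroblasts, and at least 5 of Myh11 and Cnn1 for smooth muscle. Barcodes that met more than 1 of these rules were left out. The classes held 12491 barcodes (5383 WT and 7108 LysM-DKO) of the 70795 in the series.

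The series is on epsins in atherosclerosis and holds single-cell RNA of whole mouse aorta in 4 libraries, 1 for each group: WT and LysM-DKO on normal diet, and both genotypes on an ApoE-null background with western diet. Aortas were taken apart with collagenases and liberase, and libraries were made with a 10x Genomics 3' kit. The libraries compared here thus share the ApoE-null background and the diet and differ by LysM-DKO. The normal diet pair differs from them in ApoE, diet and software version together. The pairs also differ in the level of sex-linked transcripts, given under Other observations. Age, sex and the number of animals pooled are not given in the sources used here. With 1 library for each group no test between genotypes is possible, and intervals are 95% intervals for counting error only. Differences between animals or preparations cannot be told apart from genotype.

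Epsins are adaptor proteins of clathrin-mediated endocytosis that bind the membrane, ubiquitinated cargo and clathrin. In mouse lines of this kind the LysM promoter drives Cre recombinase, and LysM is the older name of Lyz2, the lysozyme of macrophages, neutrophils and monocytes. Deletion by Cre is thereby directed to myeloid cells, and the other classes are compared here as cells in which LysM is not active. In the plaques of ApoE-null mice, macrophages take up lipoprotein cholesterol and become foam cells with high Trem2 and Gpnmb, while resident macrophages of the outer wall carry Lyve1 and Folr2.

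The libraries differed in depth and make-up before any gene was compared. The WT library had 67450979 UMIs with a median of 1047 a barcode, and the LysM-DKO library had 62510744 with a median of 5581. Among kept barcodes the medians were close within a class: 4803 (WT) and 4051 (LysM-DKO) in macrophages, 5575 and 4690 in endothelial cells, 4608.5 and 3982 in fibroblasts, and 5694 and 7034 in smooth muscle. Barcode sequences shared by the libraries numbered 80, or 0.701% of the smaller one.

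Macrophages were 391 of 7149 kept WT barcodes (5.47%, exact binomial interval 4.95 to 6.02%) and 105 of 7748 LysM-DKO barcodes (1.36%, 1.11 to 1.64%). The difference was -4.11 percentage points (Newcombe interval -4.71 to -3.54). Smooth muscle was 63.6% of WT and 83.6% of LysM-DKO barcodes, fibroblasts were 5.12% and 5.96%, and endothelial cells were 1.11% and 0.813%. Barcodes meeting no rule were 16.0% and 2.47%, and lymphoid barcodes among them (at least 3 UMIs of Cd3d, Cd3e, Cd3g, Cd79a, Cd79b, Ms4a1 and Nkg7) were 4.76% and 0.271%. A share is of recovered barcodes, so loss in digestion and absence from the aorta cannot be told apart. On normal diet the order was the other way, with macrophages at 0.890% of WT and 1.97% of LysM-DKO barcodes.

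**Figure D1:**
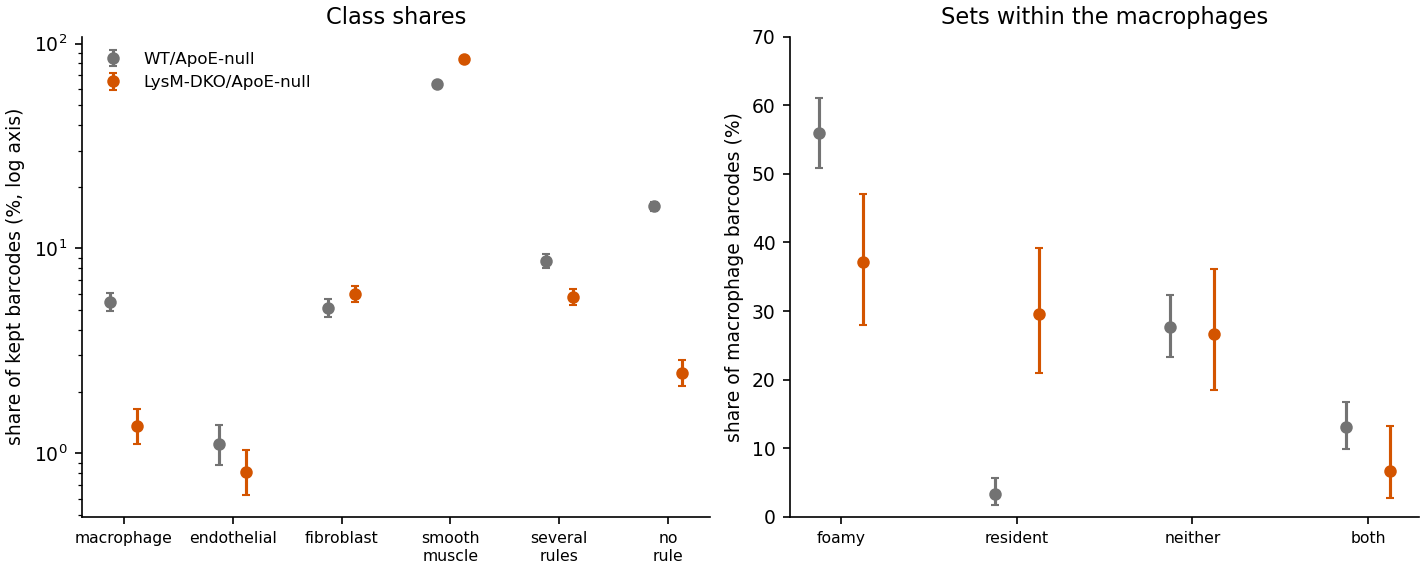
Share of kept barcodes in each class (left, percent on a log axis) and of macrophage barcodes in each set (right, percent), for the WT/ApoE-null library in grey and the LysM-DKO/ApoE-null library in orange. Points are 1 library each and bars are exact binomial 95% intervals for counting error: macrophages lay at 5.47% and 1.36% of barcodes, and resident ones at 3.32% and 29.5% of macrophages.

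The make-up of the macrophages also differed. Those with at least 2 UMIs of Trem2 and Gpnmb and not of Lyve1 and Folr2, called foamy here, were 219 of 391 (56.0%, 50.9 to 61.0%) in WT and 39 of 105 (37.1%, 27.9 to 47.1%) in LysM-DKO. Those with at least 2 UMIs of Lyve1 and Folr2 and not of Trem2 and Gpnmb, called resident, were 13 (3.32%, 1.78 to 5.62%) and 31 (29.5%, 21.02 to 39.2%). Barcodes with neither were 27.6% and 26.7%, and those with both were 13.04% and 6.67%. A macrophage ratio below can therefore mix a change of level with a change of these shares, and ratios within the sets are given for the genes the results turn on.

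Markers not used by the class rules were read as a check. At least 3 UMIs of 10 further macrophage markers (among them Cd68, Csf1r and Tyrobp) were found in 99.2% of WT and 100% of LysM-DKO macrophages, and all fibroblasts and smooth muscle barcodes had as many of theirs. This does not separate fibroblasts from smooth muscle: 98.2% and 97.4% of smooth muscle barcodes also had 3 UMIs of fibroblast markers. Of fibroblasts, 87.2% and 92.4% had 3 UMIs of smooth muscle markers, and 39.9% and 33.5% had 3 of chondrocyte-like markers. CPM is the count of a gene or list scaled to a class total of 1e6 UMIs. By this level fibroblast markers stood at 39535 and 30809 in fibroblasts and at 5768 and 2226 in smooth muscle. The endothelial class was weak, most of all in the WT library, where only 26 of 79 barcodes (32.9%) had 3 UMIs of the further endothelial markers against 50 of 63 (79.4%) in LysM-DKO. Those markers summed to 1085 and 3008 CPM, below the fibroblast markers in the same class (13660 and 7461) in both libraries. Chondrocyte-like markers in it stood at 1276 and 3277 CPM, with 35.4% and 54.0% of barcodes at 3 UMIs, B cell markers at 343 and 2.71, and T or NK cell markers at 169 and 2.71. The endothelial rule, at 2 UMIs, also had 856 WT and 927 LysM-DKO barcodes just 1 UMI below it. For macrophages these were 58 and 1. Fibroblast markers in the macrophage class summed to 1498 CPM in WT and 363 in LysM-DKO, and 52.4% and 22.9% of its barcodes had at least 3 such UMIs.

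A gene was measured in a class at a mean of at least 50 CPM and at least 20 UMIs over both libraries, and was past 2 fold when the log2 of its LysM-DKO level over its WT level reached 1 in size and the counting interval left out 0. In macrophages 82 of 3050 measured genes were past 2 fold higher in LysM-DKO (2.69%) and 47 were lower (1.54%). In endothelial cells 229 of 3458 were higher (6.62%) and 123 lower (3.56%), in fibroblasts 62 of 3350 (1.85%) and 76 (2.27%), and in smooth muscle 28 of 3196 (0.876%) and 44 (1.38%). Of the macrophage genes, 65 of the 82 that were higher and 35 of the 47 that were lower were past 2 fold the same way in no other class. In smooth muscle this held for only 5 of the 28 that were higher. A gene under the minimum for measurement in a class counts here as not past 2 fold, and only 1942 genes were measured in all classes. These counts thus do not show that a shift was absent elsewhere.

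Of 1942 genes measured in all classes, 8 were past 2 fold higher in every class (0.412%) and 3 were lower in every class (0.154%). Among the higher ones were Gm10076, Rpl37, mt-Nd3, mt-Atp8, mt-Nd4l, Zbtb16 and Dpm3, and the lower ones were Spp1, Lum and Col1a1. On normal diet 2 of 1838 genes were higher in every class (0.109%), Esr1 and H2-Eb1, and none was lower (0%).

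**Figure D2:**
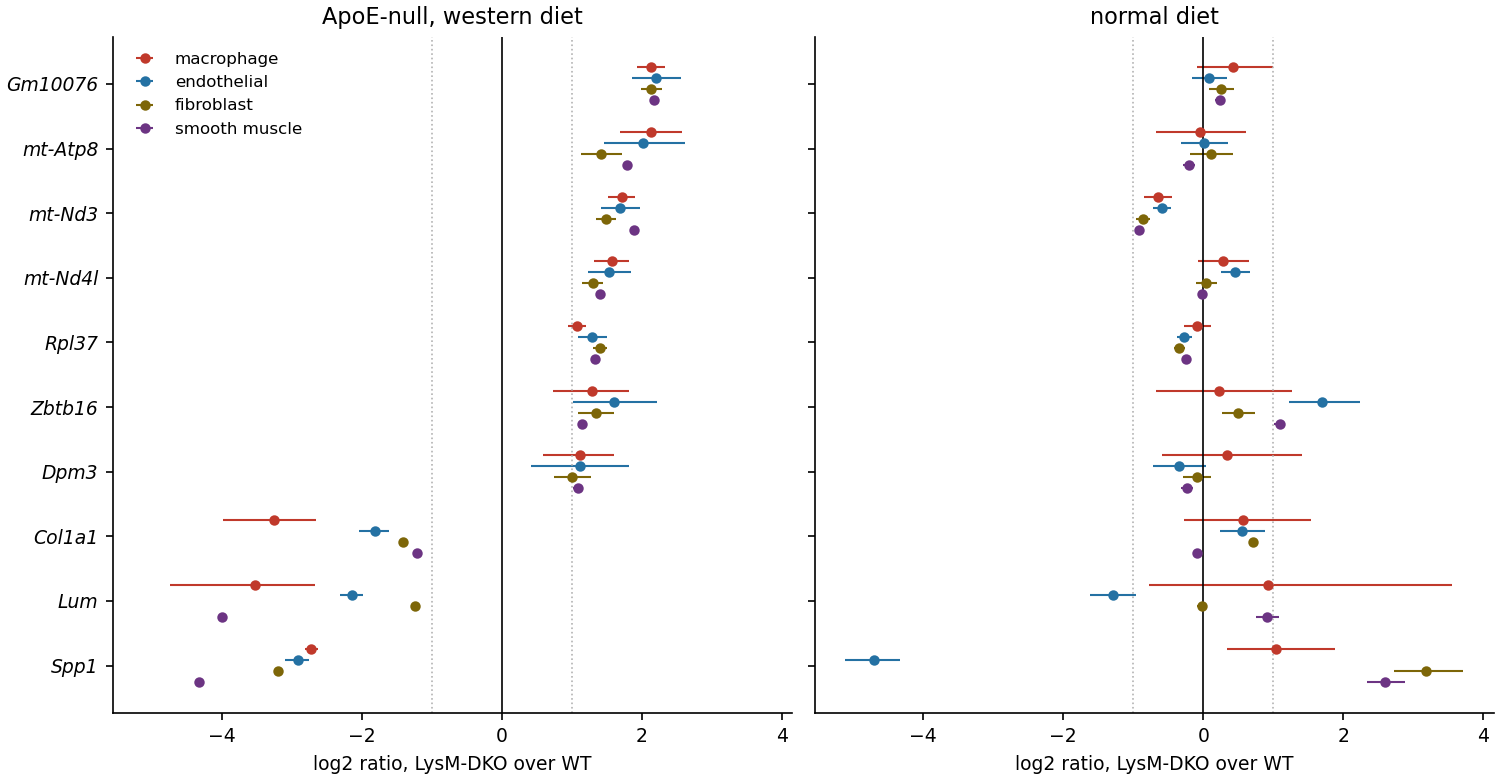
Log2 ratio of LysM-DKO over WT (x axis) for 10 of the genes past 2 fold in every class on western diet, in the western diet pair (left) and the normal diet pair (right). Points are classes, 1 library a genotype, bars are 95% counting intervals, and dotted lines mark 2 fold. All points for these genes lie past the lines on the left, by choice of the genes, and most of those for the 7 higher genes lie within them on the right.

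Rpl37 (ENSMUSG00000041841, chr15:5116645-5119140, plus strand, GRCm38), a large-subunit ribosomal protein, went from 692 to 1459 CPM in macrophages (log2 ratio 1.08, 0.95 to 1.20). Its ratios were 1.29 in endothelial cells, 1.40 in fibroblasts, 1.33 in smooth muscle and 1.02 in lymphoid barcodes, and it was below 0 in each class on normal diet (-0.34 to -0.08). Its smallest class ratio was 0.97 with equal weight for each barcode and 0.90 after thinning to 2000 UMIs, both under the limit. Within macrophages the Rpl37 ratio was 1.21 in the foamy, 1.30 in the resident and 1.21 in the neither set. Much of the Rpl37 sequence is shared with other annotated genes. Of the 30-base stretches in its last 200 bases, 82.5% occur in other genes, 11 in all. How many of the Rpl37 UMIs come from those genes was not tested, and the Rpl37 ratio is uncertain for that reason. Over 83 ribosomal protein genes the median log2 ratio was 0.26 in macrophages, 0.21 in endothelial cells, 0.38 in fibroblasts and 0.41 in smooth muscle, with 69, 57, 79 and 76 genes above 0. The family did not move as 1 block: Rps2 had the lowest ratio of the family in every class, at -1.19, -1.20, -0.83 and -0.80.

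Gm10076 (ENSMUSG00000060143, chr14:105681828-105682211, plus strand) is annotated as a long non-coding RNA and is a near copy of the ribosomal protein gene Rpl41 (chr10:128548114-128549305, minus strand). Of its 384 bases, 381 match the Rpl41 transcript in 1 alignment with 2 mismatches. The open reading frames, shown because reads of these genes can hardly be separated, are the same in all 78 bases, with start and stop codons in capitals:
Rpl41: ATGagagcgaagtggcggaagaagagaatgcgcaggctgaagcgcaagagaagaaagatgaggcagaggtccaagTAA
Gm10076: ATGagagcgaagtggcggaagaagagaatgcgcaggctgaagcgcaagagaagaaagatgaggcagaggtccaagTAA
Despite this, UMIs assigned to Gm10076 went from 192 to 840 CPM in macrophages (log2 ratio 2.13, 1.94 to 2.33), while those assigned to Rpl41 went from 1190 to 1637 (0.46, 0.35 to 0.57). The other classes gave the same pair of values, with 2.14 to 2.21 for Gm10076 and 0.32 to 0.55 for Rpl41. How many of the Gm10076 UMIs come from Rpl41 transcripts was not tested, and the Gm10076 ratio is uncertain for that reason.

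The 3 mitochondrially encoded genes in this group are the short ones: mt-Nd3 and mt-Nd4l, subunits of respiratory complex I, and mt-Atp8, a subunit of ATP synthase. In macrophages mt-Nd3 went from 233 to 764 CPM (log2 ratio 1.71, 1.52 to 1.90), mt-Atp8 from 38.5 to 169 (2.13, 1.69 to 2.58) and mt-Nd4l from 147 to 436 (1.57, 1.32 to 1.82). Across the other classes their ratios were 1.30 to 2.01. The remaining 10 of the 13 measured mitochondrial genes were past 2 fold in no class. mt-Atp6, which overlaps mt-Atp8 in the genome, had ratios of -0.21 to 0.02. In barcodes under 1000 UMIs the mt-Nd3 ratio was 3.03 (444 to 3627 CPM). The limit of 10% mitochondrial UMIs was not applied to those barcodes, so this value is not like for like with the class ratios. Much of the mt-Nd3 and mt-Nd4l sequence is shared with other annotated genes, in that 98.2% of the 30-base stretches in their last 200 bases occur in another gene, against 8.19% for mt-Atp8.

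Of the 8 genes higher in every class, 7 have a longest annotated transcript under 1000 bases, compared with 9.63% of the 1942 genes, whose median is 3301 bases. This was looked at after the genes were seen, so the ratio was then read over all measured genes by transcript length. Genes under 600 bases had a median log2 ratio of 0.57 in macrophages (37 genes), 0.40 in endothelial cells (29), 0.52 in fibroblasts (30) and 0.62 in smooth muscle (28). Genes of 5000 bases and over had medians of 0.05, 0.06, 0.10 and -0.00. Without ribosomal protein and mitochondrial genes the medians under 600 bases were 0.43, 0.22, 0.46 and 0.58. Of 25 genes under 600 bases measured in all classes, 20 (80.0%) had a ratio above 0 in every class, against 14.4% of genes of 5000 bases and over. On normal diet the medians under 600 bases were -0.08 to 0.06, and 5 of 30 such genes (16.7%) were above 0 in every class. The normal diet pair also differed by length, but with its peak elsewhere: 29.7% of genes of at least 600 and under 800 bases were above 0 in every class, 39.5% of those of at least 800 and under 1000 bases, and 4.87% at 5000 bases and over, against 43.5%, 31.2% and 14.4% on western diet. The part of transcript length in the shared shifts was not tested.

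**Figure D3:**
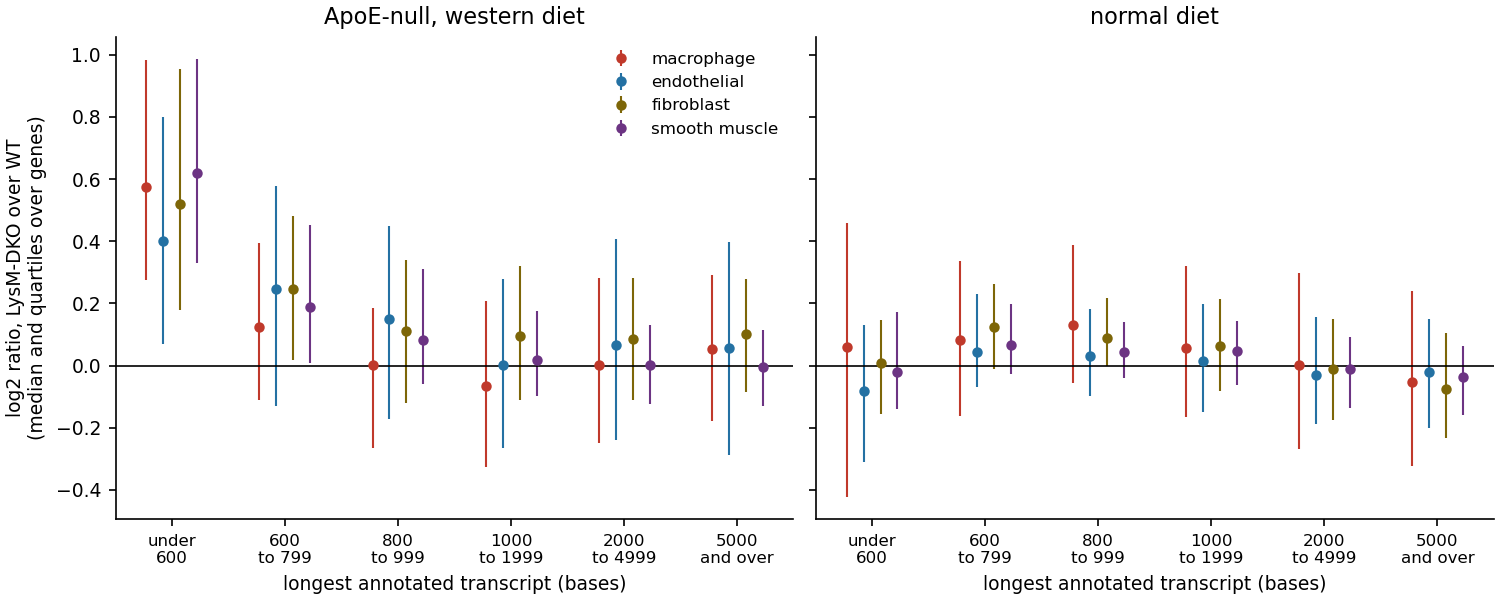
Log2 ratio of LysM-DKO over WT (y axis) by length of the longest annotated transcript in bases (x axis), for the western diet pair (left) and the normal diet pair (right). Points are medians over the measured genes of a class and bars run from the first to the third quartile over genes: on western diet the medians under 600 bases are 0.40 to 0.62 and those of 5000 bases and over are near 0.

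Zbtb16 (ENSMUSG00000066687, chr9:48654297-48836222, minus strand), a zinc finger transcription factor known to be induced by glucocorticoids, is the long transcript of the group, at 5114 bases. It stood at 36.7 and 89.2 CPM in macrophages (83 and 46 UMIs, log2 ratio 1.29, 0.73 to 1.82), 58.9 and 179 in endothelial cells, 75.7 and 192 in fibroblasts, and 110 and 242 in smooth muscle. After thinning every barcode to 2000 UMIs, Zbtb16 was detected in 33 of 391 WT (8.44%) and 21 of 105 LysM-DKO macrophages and in 18.6% and 37.2% of smooth muscle barcodes. Lymphoid barcodes gave 62.8 and 60.6 CPM, from 64 and 4 UMIs (log2 ratio 0.11, -1.97 to 1.37), which is too few to place. The smallest Zbtb16 ratio of the 4 classes was under the limit at a minimum of 4000 UMIs (0.61) and with barcodes kept in every class whose rule they met (0.92). Zbtb16 also left the shared genes at a minimum mean of 100 CPM, and when foamy, resident and neither macrophages were given equal weight. Within these sets its ratio was -0.09 (30 and 5 UMIs), 0.33 (8 and 22) and 0.44 (42 and 15), so the macrophage ratio of 1.29 was past 2 fold in none of them. On normal diet Zbtb16 was higher in LysM-DKO smooth muscle (1.09) and endothelial cells (1.70), with 0.50 in fibroblasts and 0.23 in macrophages.

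Fkbp5, a co-chaperone of the glucocorticoid receptor, is also known to be induced by glucocorticoids. Fkbp5 went from 60.2 to 128 CPM in macrophages (log2 ratio 1.09, with 0.71 in foamy, 0.01 in resident and -0.17 in neither barcodes) and from 65.0 to 176 in endothelial cells (1.44), with 0.77 in fibroblasts. In smooth muscle the ratio was 1.05 at a level under the minimum for measurement (32.2 and 66.5 CPM). In macrophages the rest of a list of 17 glucocorticoid-responsive genes stayed under 2 fold, with Tsc22d3 at 0.34, Sgk1 at -0.05 and Dusp1 at -0.11. Of the list, 2 of 11 measured genes were past 2 fold higher in macrophages, 3 of 14 in endothelial cells, 1 of 12 in fibroblasts and 1 of 10 in smooth muscle, with medians of 0.23, 0.29, 0.34 and 0.05 and with 8, 10, 9 and 6 genes above 0. Of all measured genes 2.69%, 6.62%, 1.85% and 0.876% were past 2 fold higher in these classes. The third endothelial gene was the sulfotransferase Sult1a1 (18.1 and 86.9 CPM, 2.22). Lcn2, an iron-binding secreted protein, was past 2 fold lower in fibroblasts (275 and 16.3 CPM, -4.06) and smooth muscle (108 and 10.8, -3.32).

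Dpm3 (ENSMUSG00000042737, chr3:89259358-89267079, plus strand) encodes a subunit of dolichol-phosphate mannose synthase, which supplies mannose for glycosylation. It was the gene nearest to the threshold: 46.0 and 98.9 CPM in macrophages (1.11, 0.59 to 1.60) and a ratio of 1.01 in fibroblasts. Dpm3 left the shared genes under 10 of 14 alternatives, with a smallest class ratio of 0.91 under median-ratio scaling, 0.83 at class thresholds 2 times as high and 0.57 in macrophages without other fibroblast markers.

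Spp1 (ENSMUSG00000029304, chr5:104435118-104441050, plus strand) encodes osteopontin, a secreted phosphoprotein of plaque macrophages and modulated smooth muscle. In macrophages it stood at 13351 CPM in WT and 2029 in LysM-DKO (30161 and 1046 UMIs, log2 ratio -2.72, -2.81 to -2.63). In fibroblasts the levels were 17082 and 1869, in endothelial cells 5908 and 782, and in smooth muscle 1414 and 70.6. Spp1 was also found in lymphoid barcodes (494 and 15.1 CPM, 504 and 1 UMIs) and in barcodes under 1000 UMIs (3390 and 189 CPM). At 2000 UMIs a barcode, 72.1% of WT and 26.7% of LysM-DKO macrophages had a Spp1 UMI, against 30.6% and 4.76% of lymphoid barcodes. These barcodes, a gauge of free RNA in the suspension, moved with the Spp1 ratio of all classes, and the part of free RNA in it was not tested. Within macrophages the Spp1 ratio was -2.11 in the foamy and -2.59 in the neither set, and resident ones had 65 and 0 UMIs (at least 45.5-fold lower). On normal diet the Spp1 ratio was 1.04 in macrophages, 3.18 in fibroblasts, 2.60 in smooth muscle and -4.70 in endothelial cells.

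Lum (ENSMUSG00000036446, chr10:97565128-97572703, plus strand), a proteoglycan of collagen fibres, and Col1a1 (ENSMUSG00000001506, chr11:94936224-94953042, plus strand), the major chain of type I collagen, are products of fibroblasts and modulated smooth muscle. In fibroblasts Lum stood at 5514 and 2339 CPM (log2 ratio -1.24) and Col1a1 at 10675 and 4036 (-1.40). In smooth muscle Lum stood at 1118 and 70.2 CPM (-3.99) and Col1a1 at 1449 and 626 (-1.21). In macrophages Lum was 212 and 17.5 CPM (479 and 9 UMIs) and Col1a1 was 395 and 40.7 (893 and 21 UMIs). Of those 893 Col1a1 UMIs, 507 came from 1 barcode. Lymphoid barcodes showed the same direction, with Col1a1 at 548 and 45.4 CPM and Lum at 249 CPM against 0 UMIs, at least 5.49-fold lower by a floor of 3 UMIs. When only macrophages without any UMI of 7 other fibroblast markers were kept (80 and 44 barcodes), Col1a1 stood at 59.8 and 65.7 CPM (0.17) and Lum at 56.9 and 23.9 (-1.12, -3.26 to 0.32), while Spp1 was still lower at 2560 and 251 (-3.34). In this subset Lum rested on 20 and 4 UMIs and Col1a1 on 21 and 11. The part of fibroblast transcripts in the macrophage ratios of Lum and Col1a1 was not tested.

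A fixed list of 18 matrix and modulation genes had 9 of 10 measured members lower past 2 fold in macrophages, 8 of 17 in endothelial cells, 10 of 18 in fibroblasts and 9 of 15 in smooth muscle, with medians of -2.61, -0.96, -1.15 and -2.37. The macrophage median was 0.06 when macrophages with a UMI of other fibroblast markers were left out. Medians over all measured genes were 0.02, 0.06, 0.10 and 0.01, and 1.54%, 3.56%, 2.27% and 1.38% of them were past 2 fold lower. The largest differences in the fibroblast class, which also holds chondrocyte-like markers, were in this direction: Ibsp, a bone matrix protein, went from 2558 to 7.71 CPM (log2 ratio -8.34), Slpi, a protease inhibitor, from 214 to 0.428 (-8.38), and the collagenase Mmp13 from 283 to 0.856 (-8.05). The LysM-DKO levels of Slpi and Mmp13 lie under the floor of 3 UMIs in that class (1.28 CPM), so the size of their ratios is uncertain. Ereg, a growth factor of the EGF family, was higher, at 45.7 and 206 CPM (2.17). In smooth muscle the protease Mmp3 went from 182 to 8.86 CPM (-4.36) and complement C3 from 145 to 8.86 (-4.03), while the elastic fibre protein Mfap4 went from 231 to 578 (1.33). Chondrocyte-like markers in the fibroblast class were also lower in LysM-DKO, with 6518 and 3200 CPM, and in smooth muscle, with 590 and 180, but higher in the endothelial class (1276 and 3277). Vcam1, the adhesion receptor for leukocytes, was lower in endothelial cells (4394 and 1605 CPM, -1.45), fibroblasts (-1.58) and smooth muscle (788 and 128 CPM, -2.62), and had a ratio of 0.32 in macrophages.

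In the endothelial class 9 of 15 measured endothelial genes were past 2 fold higher in LysM-DKO and 1, Vcam1, was lower (median 1.11). Of all genes measured in this class 6.62% were higher and 3.56% lower. Cldn5, a tight junction protein, went from 142 to 500 CPM and Egfl7, a secreted endothelial factor, from 90.7 to 372. Rbp7 went from 7.56 to 166 CPM and Apod from 0 to 100.5 (0 and 37 UMIs, at least 22.2-fold higher). Glycam1, a ligand of L-selectin, was at 272 CPM in WT against 0 UMIs, at least 33.4-fold lower. These values move with the weak marker content of the WT class given above. In endothelial barcodes that also had 3 UMIs of other endothelial markers (26 and 50), Zbtb16 had 2.01, Spp1 -2.33 and Dpm3 0.75.

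Genes that shifted in macrophages alone were of 2 kinds. The first were measured in all classes, past 2 fold in macrophages, under 0.5 in size in each other class, and apart from each by counting error. Of 1942 genes, 7 were higher (0.36%) and 5 lower (0.257%). For the second, the macrophage level was at least 4 times that of each other class in the library where the gene was higher. No such lead was required in the other library. They were also past 2 fold the same way in no other class, where a gene under the minimum for measurement counts as not past it. Of 3050 genes, 35 were higher (1.15%) and 7 lower (0.23%). Together there were 42 higher and 11 lower genes.

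MHC class II genes were the most abundant of the higher genes. They encode the proteins that present antigen to CD4 T cells, and Cd74 is their chaperone. H2-Eb1 (ENSMUSG00000060586, chr17:34305867-34316674) went from 1183 to 4005 CPM (2673 and 2065 UMIs, log2 ratio 1.76, 1.68 to 1.84). H2-Aa went from 1367 to 4256 (1.64), H2-Ab1 from 1065 to 3354 (1.66) and Cd74 from 2421 to 8058 (1.73). H2-DMa and H2-DMb1, which load peptide, had 1.37 and 1.43. Class I genes were nearly level, with H2-D1 at 0.08, H2-K1 at 0.30 and B2m at 0.21. Dendritic cell markers in the macrophage class moved the same way, from 27.4 to 62.1 CPM summed over 8 genes, none at 0, with 3 UMIs of them in 5 of 391 and 3 of 105 barcodes (1.28% and 2.86%). Their part in the class II difference was not tested. Cd74 went the other way in fibroblasts (-1.82) and in lymphoid barcodes (-1.37, 340 WT and only 21 LysM-DKO barcodes). After thinning, 53.8% and 19.0% of lymphoid barcodes had Cd74, and the part of their cell mix was not tested. On normal diet the MHC class I and II list was higher outside macrophages too. There 4 of 7 measured genes were past 2 fold higher in fibroblasts, 4 of 8 in smooth muscle and 4 of 9 in endothelial cells. In macrophages it was 1 of 11. Of all genes 1.09%, 0.758%, 0.777% and 2.31% were higher.

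The class II difference was present within each macrophage set. In foamy macrophages H2-Aa went from 758 to 3832 CPM (2.34) and H2-Eb1 had 2.50, in resident ones the ratios were 2.89 and 3.12 with only 13 WT barcodes, and in those with neither they were 0.73 and 0.83. Counted per barcode, the summed level of H2-Aa, H2-Ab1, H2-Eb1 and Cd74 had a median of 276 CPM in WT and 19017 in LysM-DKO macrophages. On normal diet the medians were 10843 and 17540. The WT/ApoE-/- median was thus the lowest of the 4 libraries.

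**Figure D4:**
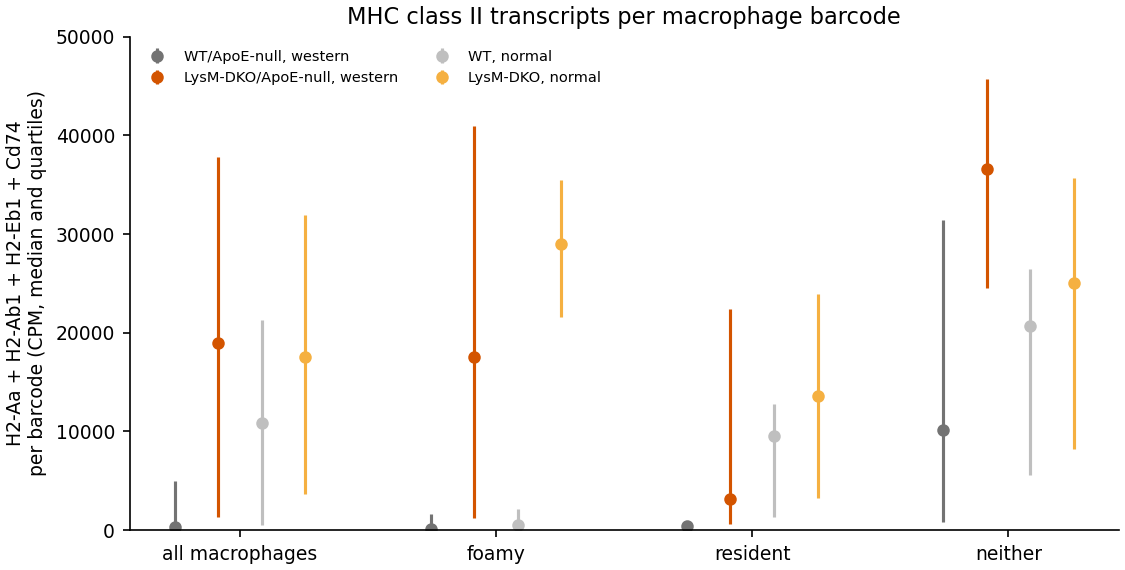
Summed level of H2-Aa, H2-Ab1, H2-Eb1 and Cd74 per macrophage barcode (y axis, CPM) in all macrophages and in the 3 sets, for the 4 libraries. Points are medians over barcodes of 1 library and bars run from the first to the third quartile: the medians over all macrophages were 276 and 19017 CPM on western diet.

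Genes of resident and alternatively activated macrophages were the second group. Of 17 listed genes 15 were measured, 9 were past 2 fold higher and none lower, with a median of 1.31. Among all genes measured in macrophages 2.69% were higher. The scavenger receptor Cd163 went from 34.1 to 252 CPM (log2 ratio 2.88), the coagulation factor F13a1 from 105 to 444 (2.08), the chemokine Pf4 from 191 to 654 (1.77) and the mannose receptor Mrc1 from 348 to 863 (1.31). Within resident macrophages the same genes had 0.48, 0.04, -0.33 and -0.22. F13a1, Pf4 and Mrc1 were also under 2 fold in foamy (0.19, 0.72 and -0.93) and neither barcodes (0.47, 0.25 and -0.35). Cd163 was past 2 fold in those with neither (21 and 19 UMIs, 1.75, 0.77 to 2.72) and had only 5 and 3 UMIs in foamy ones. With equal weight for the 3 sets the median of the list was 0.15. The share of resident barcodes, 3.32% and 29.5%, moved with these genes. That set leaves out barcodes that also met the Trem2 and Gpnmb rule, whose share went the other way (13.04% and 6.67%). The gap between libraries in all barcodes meeting the Lyve1 and Folr2 rule is thus smaller. Lyve1 went from 35.9 to 324 CPM, but Lyve1 and Folr2 define the set. Folr2 itself was level (0.03).

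Hal, histidine ammonia-lyase, the enzyme that converts histidine to urocanate, was among the largest differences (ENSMUSG00000020017, chr10:93488768-93519304, plus strand). It had 22 UMIs (9.74 CPM) in WT and 120 (233 CPM) in LysM-DKO macrophages, a log2 ratio of 4.55 (3.91 to 5.31). Barcodes with a Hal UMI were 7 of 391 (1.79%) and 33 of 105 (31.4%). Among foamy macrophages the ratio was 3.22, and among resident ones there were 0 and 65 UMIs (at least 10.3-fold higher). On normal diet Hal had 1 and 92 UMIs, in 1.79% and 27.5% of macrophages. Smooth muscle, at 0.251 and 0.712 CPM, gives the background.

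Lyz2 (ENSMUSG00000069516, chr10:117277331-117282321, minus strand), the gene at which LysM-Cre is inserted, had the largest ratio in size among the lower genes of the second kind. It went from 5776 to 789 CPM (13049 and 407 UMIs, log2 ratio -2.87, -3.02 to -2.73), and 91.3% of WT and 30.5% of LysM-DKO macrophages had a UMI of it. Lyz2 was lower in foamy (-3.51), resident (-2.30) and neither (-1.43) macrophages, and on normal diet (4156 and 1191 CPM, -1.80). Its low level elsewhere moved the same way, with 31.0 and 0.712 CPM in smooth muscle, under the minimum for measurement, so Lyz2 counts as macrophage only because of that minimum. Lyz1 (ENSMUSG00000069515, chr10:117287797-117292868, minus strand), the neighbouring lysozyme gene of Paneth cells, went from 19.5 to 101 CPM (2.37, 1.77 to 2.99) and on normal diet had 1.24. Lyz1 and Lyz2 are near copies, and how UMIs were split between them was not tested. Hal, Lyz1 and Lyz2 lie on chromosome 10.

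Of the other genes with large ratios, several rested on few barcodes. Retnla, a secreted product of alternative activation, went from 12.4 to 310 CPM (1.82 within resident macrophages), but 70 of its 160 LysM-DKO UMIs came from 1 barcode and only 8 barcodes had any. Apoc1, an apolipoprotein, went from 11.5 to 101 CPM with 51 of 52 UMIs from 1 barcode. Ccl24, an eosinophil chemokine, was spread wider, with 21 UMIs in 14 WT and 54 in 21 LysM-DKO macrophages (log2 ratio 3.47). The lectin Clec10a went from 22.1 to 89.2 CPM (2.01), the leukotriene synthase Ltc4s from 26.6 to 95.05 (1.84) and the interferon-inducible Ifi203 from 48.7 to 169 (1.79). Within the sets, Clec10a had 0.07 in resident macrophages, 30 and 0 UMIs in those with neither and 2 and 6 UMIs in foamy ones. Ltc4s had 0.91 in resident, -0.06 in neither and -1.59 in foamy barcodes (23 and 1 UMIs). Ccl24 had 0.77 in resident ones and at most 3 UMIs a library in foamy and neither ones, while Ifi203 had 0.58 in foamy, 0.95 in resident and 1.82 in neither barcodes.

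Higher genes of the first kind, expressed in all classes, were led by the growth factor Hbegf (60.2 and 173 CPM, 1.52), the neonatal Fc receptor Fcgrt (66.8 and 175, 1.39), Igfbp4 (58.9 and 145, 1.31) and the RNA-binding protein Zfp36l1 (279 and 665, 1.25). Fchsd2, glutamine synthetase Glul and the scavenger receptor Colec12 had 1.12, 1.10 and 1.06. Within foamy macrophages Zfp36l1 had -0.29, Igfbp4 -0.26 and Fcgrt -0.00, and within resident ones Hbegf had -0.74. Fchsd2 had -0.36 in resident ones, and Colec12 -0.07 in foamy and -0.21 in resident ones. Of the 7, 6 were thus below 0 in at least 1 set, while Glul was above 0 in all 3, at 0.48, 0.34 and 0.44.

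The lower genes were also below 0 in foamy macrophages, which are a large part of the barcodes on which these genes were chosen. The tetraspanin Cd9 (chr6:125460266-125494791, minus strand) went from 1312 to 551 CPM (log2 ratio -1.25, -1.43 to -1.08), with 0.00, -0.26 and 0.00 in endothelial cells, fibroblasts and smooth muscle, -0.68 in foamy macrophages and -1.06 on normal diet. The LDL receptor chaperone Lrpap1 went from 197 to 95.05 CPM (-1.04). Lsm12 had -1.39 and Hras -1.29, from 16 and 15 LysM-DKO UMIs. Of the second kind, Slc37a2, a sugar-phosphate transporter, had -1.43, the adhesion molecule Cadm1 -1.23, Cdk18 -1.17, the chemokine receptor Cxcr4 -1.07 and Rab3il1 -1.01. All 11 lower genes were below 0 in foamy macrophages (median -1.01), while 29 of 37 higher genes with 20 UMIs there were above 0 (median 0.83, against 1.43 in all macrophages). Foamy barcodes held 1371595 of 2259154 WT and 264085 of 515544 LysM-DKO macrophage UMIs, so these counts follow in part from how the genes were chosen. In neither barcodes 8 of 9 lower and 30 of 37 higher genes with 20 UMIs kept their direction. On normal diet 5 of the 11 lower and 25 of the 42 higher genes had the same direction.

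**Figure D5:**
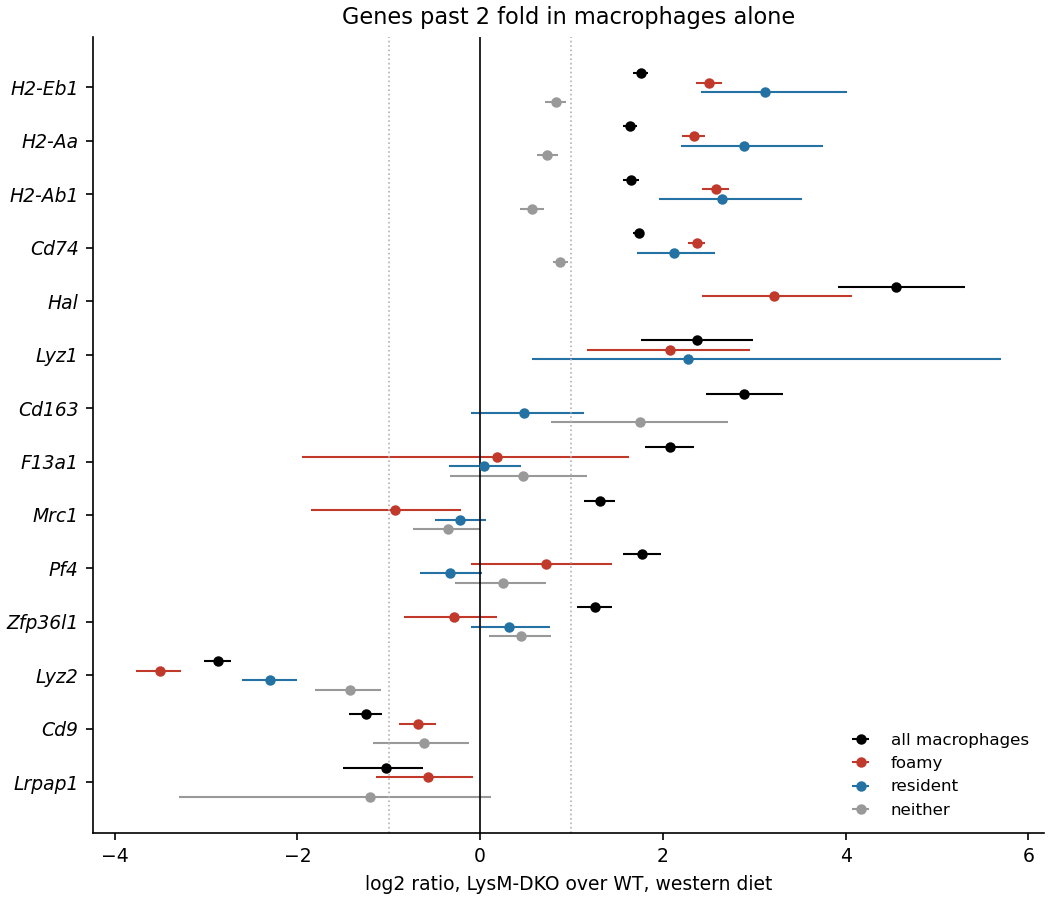
Log2 ratio of LysM-DKO over WT on western diet (x axis) for 14 of the macrophage-only genes, in all macrophages (black) and in foamy (red), resident (blue) and neither (grey) barcodes. Points are 1 library a genotype with at least 20 UMIs and none at 0, and bars are 95% counting intervals. MHC class II genes, Hal and Lyz2 keep their direction in the sets shown, and Cd163, F13a1, Mrc1 and Pf4 are under 2 fold in the resident set.

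Most foam cell genes did not reach 2 fold. All 18 listed genes were measured, none had a ratio above 0, and 3 were past 2 fold lower: Spp1, Cd9 and lipoprotein lipase Lpl (549 and 233 CPM, log2 ratio -1.23, -0.59 in foamy macrophages). Among all genes measured in macrophages 1.54% were lower. Trem2, used to define the foamy set, stood at 1174 and 681 (-0.78), the median was -0.64, and the list summed to 44311 and 23069 CPM. With equal weight for the 3 sets the median was -0.21, and on normal diet it was 0.33, with 2 of 13 measured genes past 2 fold higher and 1 lower. The 17 lysosomal genes had a median of -0.33. Of 17 inflammatory genes none was past 2 fold and 16 had a ratio above 0, with a median of 0.55, Cxcl2 at 7597 and 13353 CPM (0.81) and Ccl3 at 683 and 1278 (0.91). On normal diet their median was -0.53, with 3 of 17 past 2 fold lower. Of all genes measured in normal diet macrophages, 2.31% were past 2 fold higher and 2.39% lower.

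Of the cholesterol exporters, Abca1 stood at 907 and 698 CPM in macrophages (log2 ratio -0.37, -0.54 to -0.21) and Abcg1 at 464 and 322 (-0.52, -0.77 to -0.29). In foamy macrophages their ratios were -0.19 and -0.07. The efflux list had 1 of 12 measured genes past 2 fold, Apoc1 (higher, against 2.69% of all measured genes), and a median of -0.14. Apoc1, with 51 of its 52 LysM-DKO UMIs from 1 barcode, was also the only measured member with a ratio above 0. No cholesterol synthesis gene reached the minimum in macrophages.

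The epsin transcripts were thinly covered in macrophages. Epn1 stood at 63.3 and 46.6 CPM (143 and 24 UMIs, log2 ratio -0.42, -1.13 to 0.19) and Epn2 at 6.20 and 5.82 (14 and 3 UMIs, 0.08, -2.53 to 1.75). The Epn1 interval leaves out log2 ratios below -1.13, so by counting error a larger loss of Epn1 UMIs was not present. For Epn2 the 0.5 added UMIs turn the sign of the ratio, and 3 UMIs are too few to place a direction. The labels do not give the deleted part, and UMIs at the 3' end need not report on it. Apoe was at 23 and 4 UMIs in the macrophages of both ApoE-null libraries.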

How the data were processed

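The deposited matrices hold whole-number counts of UMIs per gene and barcode, made by the authors with Cell Ranger, version 6.1.2 for the western diet and 6.0.1 for the normal diet libraries, per the file headers. The submitters' processing notes also name Seurat 4.1.0 and build mm10. Gene positions and transcript lengths come from GENCODE M21 (GRCm38), joined by gene ID, where 99.85% of 32285 features matched. Counts were summed per class and library and scaled to the class total (CPM), with 0.5 UMIs added for the point ratio. Ratios carry exact conditional binomial intervals and shares exact binomial or Newcombe intervals, all for counting error only, and a count of 0 is set to a floor of 3. No doublet caller was run, so barcodes meeting several class rules were left out instead (8.67% of WT and 5.80% of LysM-DKO kept barcodes). No test between groups was made.

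The genes named are those shared by all classes, the 10 macrophage-only genes for each direction and kind with the largest ratio, the 3 largest for each class and direction, the epsins, lysozymes, Apoe and cholesterol exporters, and leading members of the gene lists. Mitochondrial, ribosomal protein and unnamed genes and the genes of the class rules were left out of the ranking but not of the counts. Of these, 2 are in the counts but are not reported here. Rps2, mt-Atp6, Sult1a1 and Lcn2 were named after their values were seen. Members and lists were chosen with earlier results of these data known, and the checks of transcript length, shared sequence and UMIs from 1 barcode after values were seen. The steps were tested on simulated data. Python 3.11.15, numpy 2.4.6, scipy 1.17.1 and pandas 2.3.3 were used. Alternatives covered the UMI, mitochondrial, CPM and fold limits, class thresholds, scaling, weighting and thinning.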

Additional observations from a re-analysis of the deposited data

Results flagged for a closer look

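Some macrophage differences of the western diet pair ran the other way in the normal diet pair, and the difference between diets was not tested. The macrophage share, -4.11 percentage points on western diet, was 1.08 points higher in LysM-DKO on normal diet. Spp1 had a log2 ratio of -2.72 on western and 1.04 on normal diet, the latter from 19 and 81 UMIs of which 45 came from 1 LysM-DKO barcode. Retnla had 4.63 and -0.87, Ccl24 3.47 and -0.99, Ifi203 1.79 and -0.53, and Fchsd2 1.12 and -0.95. Lsm12 had -1.39 and 1.43. mt-Nd3, higher in every class on western diet (1.71 in macrophages), had -0.65 in macrophages on normal diet.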

How the results depend on the processing

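With no CPM minimum, 13 genes were lower in every class, in place of 3, 90 were macrophage-only higher (42 as reported) and 36 lower (11), and the genes past 2 fold numbered 584 in macrophages, 794 in endothelial cells, 674 in fibroblasts and 1413 in smooth muscle (129, 352, 138 and 72 as reported). At a mean of 100 CPM the last 6 counts were 25, 4, 67, 170, 83 and 42. At a log2 ratio of 0.58, 31 genes were higher in every class (8 as reported) and 7 lower, 106 were macrophage-only higher and 60 lower, and 513, 759, 441 and 201 passed in the classes. These differences follow from the limits themselves. For the changes below the cause was not tested. Thinning to 2000 UMIs gave 21 macrophage-only lower genes, 4 of them as reported, and 244 genes past the fold in macrophages. At most 5% mitochondrial UMIs gave 26 macrophage-only lower genes. Keeping barcodes in every class they met gave 7 shared lower genes and 94 endothelial genes. The difference in share, in percentage points, for macrophages was -3.36 from 1000 UMIs, -5.01 at 5% mitochondrial UMIs and -6.31 with barcodes in every class. For smooth muscle it was 26.9, 15.0 and 17.2 under these, and 24.6 at class thresholds 2 times as high. The endothelial share, lower in LysM-DKO as reported, was higher by 0.0435 from 1000 UMIs, 0.0560 at 5% mitochondrial UMIs and 0.297 at the higher thresholds. The fibroblast difference was 3.51 from 1000 UMIs and 5.71 at 5%, and turned to -1.43 from 4000 UMIs and to -0.279 with barcodes in every class.

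Among macrophage ratios that turned, Apoc1 had -3.14 at 5% mitochondrial UMIs and Igfbp4 -0.015 from 4000 UMIs. In foamy macrophages Fcgrt had -0.0046, Igfbp4 -0.26, Zfp36l1 -0.29, Colec12 -0.065 and Ltc4s -1.59. In resident ones Hbegf had -0.74, Fchsd2 -0.36 and Colec12 -0.21. In those with neither, Igfbp4 had -0.58, Clec10a -4.04, Ltc4s -0.065 and Cadm1 0.040. That Clec10a value rests on the 0.5 UMIs added to a count of 0, with 65.5 CPM in WT against a LysM-DKO floor of 24.3. Of the alternatives chosen after seeing the data, equal weight for the 3 macrophage sets gave 28 macrophage-only higher genes, of which 13 were as reported, and Hbegf -0.46, Fchsd2 -0.058, Colec12 -0.12, Apoc1 -0.94 and Clec10a -0.058. Leaving out macrophages with other fibroblast markers left 1 shared lower gene, Spp1, and 284 macrophage genes past the fold, and gave Col1a1 0.17, Apoc1 -1.74 and a matrix list median of 0.056. Of the shared higher genes named, Gm10076, mt-Nd3, mt-Atp8 and mt-Nd4l passed under every alternative, and Spp1 of the lower ones. Of all 666 values of genes and lists under alternatives, 503 kept both direction and side of the limit, 136 kept the direction only, and the 22 above turned. The log2 limit of 0.58 and the absent CPM minimum gave 46 of the 503 each. These 2 settings only loosen the limits, so a gene already past 2 fold could not change under them. No paired analysis was possible because each group has 1 library.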

Other observations

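Other gene lists gave values that the comparison above does not use. Heat shock chaperones had medians of 0.42 in macrophages, 0.38 in endothelial cells, 0.60 in fibroblasts and 0.13 in smooth muscle, with 2 of 15, 3 of 18, 2 of 18 and 0 of 18 measured genes past 2 fold higher and none lower, against 2.69%, 6.62%, 1.85% and 0.876% of all genes higher. Immediate early genes had 1 of 19 past 2 fold higher in macrophages, the AP-1 subunit Jun (287 and 615 CPM, log2 ratio 1.10), with a median of 0.33. Hypoxia and glycolysis genes were below 0 by the median in all 4 classes (-0.44, -0.53, -0.21 and -0.21). Interferon-stimulated genes had 3 of 6 past 2 fold higher in endothelial cells and 0 of 6 in macrophages. Of 18 circadian clock genes only 3 to 6 were measured in a class. None of those was past 2 fold on western diet, while 1 of 3 was lower in macrophages on normal diet. A list of 6 sex-linked genes summed to 120 (WT) and 175 CPM (LysM-DKO) in western diet macrophages. On normal diet the sums were 1988 and 1399. In smooth muscle they were 187 and 191 on western and 952 and 983 on normal diet. Endothelial cells and fibroblasts also had lower sums on western diet. The cause of this difference between the pairs was not tested.

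Over both diets, 10 genes in the macrophage class were past 2 fold the same way and 3 (Ralgds, Spp1 and Eln) opposite ways, of 129 on western diet, 99 of which were measured on normal diet. The 10 were Hal, Lyz1, Lyz2 and Dcn on chromosome 10, and Rgs5, Cd9, Clec10a, Col14a1, H2-Eb1 and C4b. On normal diet 2.31% of all genes measured in this class were higher and 2.39% lower. Dcn (598 and 10 UMIs on western diet) is a fibroblast marker, and such markers in the class were lower in LysM-DKO. Whether the UMIs of Dcn, Col14a1 and Rgs5 come from macrophages was not tested. On chromosome 10, 5.14% of measured genes were past 2 fold in macrophages on western diet, and on chromosome 17, which holds the MHC, 8.57%, against 4.23% of all.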
